A study of Homo sapiens with 6 samples.

Results

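The genes examined here encode the Golgi enzymes that start, branch, extend and cap mucin-type and related glycans. They were chosen by symbol alone, as every row of the count table whose name begins with GALNT, GCNT, B3GALT, B3GNT, B4GALT, ST3GAL, ST6GAL, ST6GALNAC, ST8SIA, FUT or MGAT followed by a number, with at most 1 further letter. This gave 84 of the 63140 genes. NOZ-R is a gallbladder cancer line resistant to the nucleoside analogue gemcitabine, obtained by raising the dose in steps, and NOZ is the established human line from which it was derived. Each line was represented by 3 poly-A RNA-seq libraries with 14136037 to 19244923 counts each. The labels give no drug concentration or exposure time, and do not say whether NOZ-R was kept in gemcitabine up to harvest or was grown from 1 clone. Nothing there tells whether a replicate was its own culture, and the p-values therefore rest on a spread between libraries that may be technical. In RNA from a whole culture, fewer expressing cells and less RNA per cell cannot be told apart.

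Mucin-type O-glycosylation begins when a GALNT enzyme attaches N-acetylgalactosamine to a serine or threonine. C1GALT1 then adds galactose to make the core 1 structure, and GCNT1 can add a branch to it to make core 2. Further galactose and N-acetylglucosamine residues lengthen the chains, and sialic acid or fucose caps them. In gallbladder and other glandular epithelium these chains coat the mucins, and some of the capped forms, such as the sialylated Lewis antigens, are known tumour markers.

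Both lines carried an epithelial profile. Of 8 tested epithelial markers 4 were higher in NOZ-R, 2 were lower and 2 did not pass. KRT7 (log2 1.08), KRT18 (0.64), MUC1 (1.34) and KRT8 (0.25) were the higher ones, and EPCAM (-0.56) and CDH1 (-1.83) the lower ones. The keratin KRT8 averaged 1125 CPM ± 32.2 in NOZ-R and 947.5 CPM ± 89.4 in NOZ (SD, n = 3 each), where CPM is the count scaled to library size with trimmed mean of M-values (TMM) factors. KRT19 averaged 889.5 CPM ± 9.07 in NOZ-R and 925.2 CPM ± 116.9 in NOZ, and EPCAM averaged 49.4 CPM ± 1.63 in NOZ-R and 72.9 CPM ± 10.8 in NOZ (SD, n = 3 each). The epithelial cadherin CDH1 had only 14 counts in NOZ-R and 55 in NOZ over 3 libraries. The sum over 4 endothelial markers was 9.05 to 10.1 CPM in NOZ-R and 2.38 to 2.69 CPM in NOZ, most of it PECAM1, while KDR had at most 1 count in any library. Sums over 5 leukocyte markers (1.36 to 1.55 CPM in NOZ-R, 1.42 to 1.79 CPM in NOZ) and 5 fibroblast markers (2.72 to 3.86 CPM in NOZ-R, 2.74 to 3.32 CPM in NOZ) were low. The part of these markers in the results was not tested.

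Of the 84 genes, 50 had enough counts to be tested. In NOZ-R 22 were higher and 15 lower than in NOZ at an edgeR adjusted p below 0.05, and 13 did not pass. Of all 14386 tested genes 30.4% were higher and 29.8% lower, 60.2% in either direction, so most genes of this comparison pass and a call alone says little. Among the enzymes 44.0% were higher and 30.0% lower. Their median log2 fold change was 0.17, against -0.01 over all tested genes. With an estimated change of at least 2-fold there were 7 increases and 4 decreases, where 8.96% and 7.57% of all tested genes passed. The libraries of the lines did not overlap in CPM for 38 of the 50, against 65.3% of all tested genes, and 17 of the 37 calls had a log2 change smaller than 0.5 in size.

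**Figure D1:**
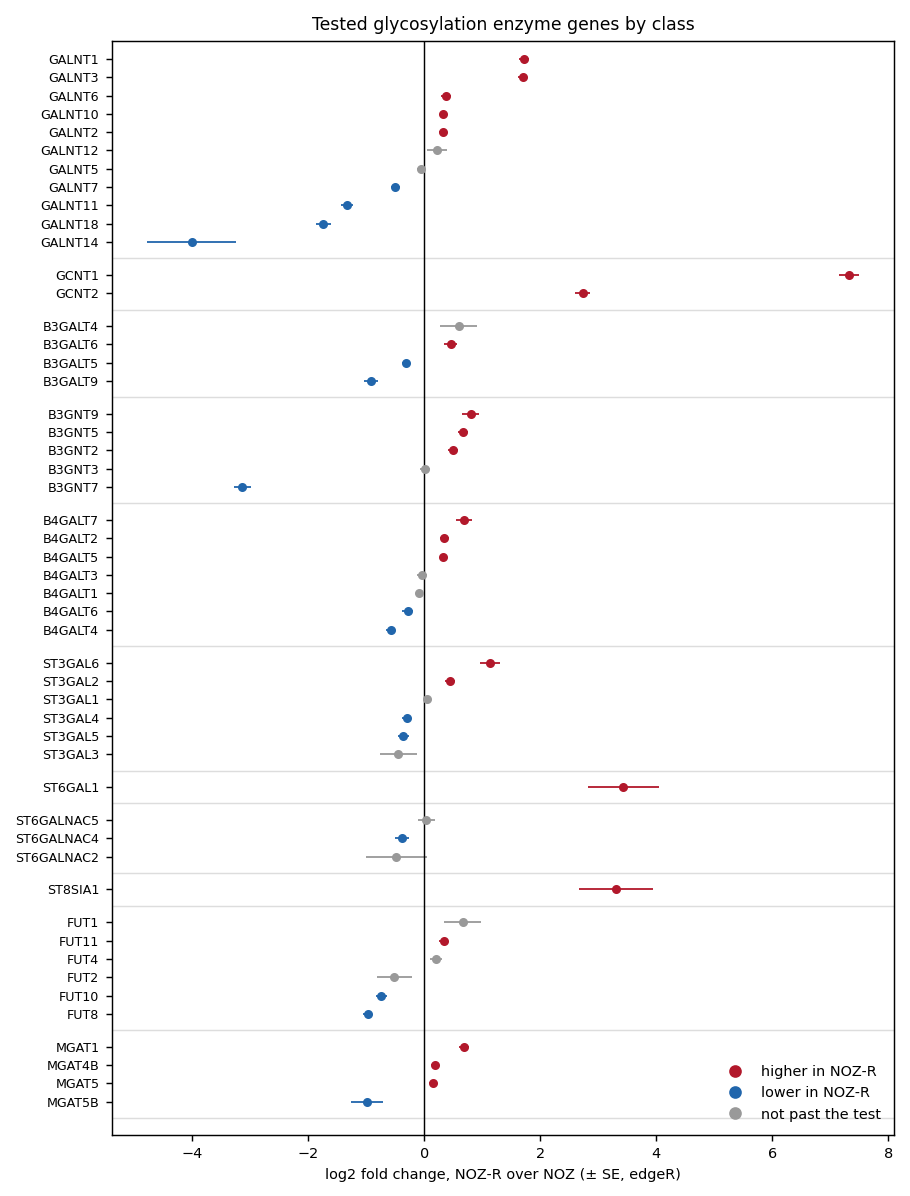
Log2 fold change of NOZ-R over NOZ with its standard error (horizontal axis) for the 50 tested enzyme genes, grouped by class down the page. GCNT1 stands at 7.32, the other genes lie between -4.00 for GALNT14 and 3.43 for ST6GAL1, and most sit within 1 log2 unit of 0.

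The branching enzymes of the GCNT class held the largest change. GCNT1, the core 2 enzyme (chromosome 9, 76419850 to 76651203, GRCh38), rose to a moderate level in NOZ-R, against a few counts per library in NOZ, and GCNT2, which makes the branched I antigen, rose too. The other class members stayed near 0. DNA before 1 of the listed starts of each gene is shown first, because they are the strongest increases with such a window outside annotated exons, together with that of FUT8, the strongest decrease of a well expressed gene among such windows. Each window is the 250 bases before a RefSeq start (GRCh38.p14). Capitals mark a match, on either strand, to 1 of the motifs TGANTCA (AP-1-like, any base at N), ACGTG (hypoxia response core) or GGGCGG (GC box).
GCNT1: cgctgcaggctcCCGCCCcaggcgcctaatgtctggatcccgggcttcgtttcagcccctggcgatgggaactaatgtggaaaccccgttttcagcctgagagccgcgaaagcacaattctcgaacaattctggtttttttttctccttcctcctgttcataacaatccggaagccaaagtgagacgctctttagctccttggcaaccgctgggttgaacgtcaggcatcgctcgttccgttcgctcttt
GCNT2: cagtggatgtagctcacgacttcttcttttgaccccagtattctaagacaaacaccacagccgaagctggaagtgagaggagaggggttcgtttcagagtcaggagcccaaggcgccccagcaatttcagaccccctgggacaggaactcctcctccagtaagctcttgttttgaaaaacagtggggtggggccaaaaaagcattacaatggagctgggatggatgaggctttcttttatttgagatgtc
FUT8: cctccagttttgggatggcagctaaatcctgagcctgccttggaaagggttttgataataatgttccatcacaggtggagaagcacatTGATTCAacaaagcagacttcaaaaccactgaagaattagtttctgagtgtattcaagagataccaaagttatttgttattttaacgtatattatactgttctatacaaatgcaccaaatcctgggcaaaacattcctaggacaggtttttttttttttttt
The GCNT1 window (chr9:76394603-76394852, plus strand) held 1 GC box, a motif found in 42.6% of the 35116 windows in the RefSeq table. The GCNT2 window (chr6:10555559-10555808, plus strand) held none of the motifs. The FUT8 window (chr14:65410342-65410591, plus strand) held 1 match to TGANTCA, with T as its middle base. Matches with any middle base were found in 6.57% of windows. Whether this match is an AP-1 site was not tested. RefSeq lists 4 starts for GCNT1, 4 for GCNT2 and 3 for FUT8, and gene counts do not tell which is used. The GCNT1 window lies well before the GENCODE start of the gene given above, and the GCNT2 window lies inside the GENCODE span of GCNT2 (10492223 to 10629368), before an internal start. Windows of 27 starts, of 23 enzyme genes, lie outside GENCODE exons.

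GCNT1 had 856, 882 and 836 counts in the NOZ-R libraries, against 8, 4 and 5 counts in the NOZ libraries. The groups stood far apart, with a ratio of 162.8 and a 95% counting interval of 101.5 to 280.0 (exact binomial). The log2 fold change was 7.32 ± 0.169 (SE, edgeR adjusted p = 6.1e-13), the 60th highest of 14386 genes. Per length, GCNT1 averaged 5.43 FPKM in NOZ-R and 0.0361 FPKM in NOZ. GCNT2 (chromosome 6, 10492223 to 10629368) had 18.7, 22.6 and 19.95 CPM in NOZ-R, against 3.09, 3.10 and 2.97 CPM in NOZ, with no overlap. Its log2 fold change was 2.73 ± 0.128 (SE, edgeR adjusted p = 7.25e-10). In summed FPKM of the class GCNT1 took 69.2% in NOZ-R and 5.94% in NOZ, and GCNT2 took 27.0% in NOZ-R and 56.5% in NOZ. GCNT3, a mucin-type branching enzyme of gut epithelium, GCNT4 and GCNT7 had too few counts to be tested. GCNT3 had the most of these, 42 over all 6 libraries, 31 in NOZ-R and 11 in NOZ with overlapping libraries. GCNT4 had 19 in NOZ-R and 6 in NOZ, and GCNT7 15 and 19. Where low counts were not filtered, 3 GCNT genes were called higher, as they were where NOZ-R replicate 2 was left out.

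The GCNT1 locus was examined for the changes of its neighbours. The median log2 fold change of tested genes on chromosome 9 was -0.61, and 74.8% of them were lower and 8.16% higher. Of the 5 tested genes on each side of GCNT1, 2 were higher in NOZ-R and 5 were lower (median log2 change -0.37). The next gene, PRUNE2, had 247, 267 and 253 counts in NOZ-R and 0 in every NOZ library, and was at least 275.0-fold higher (floor of 3 counts over the group). PRUNE2 lies on the opposite strand and shares 262 exon bases with GCNT1, 2.83% of the GCNT1 exon bases, and no strand-marking step is described for the libraries. Beyond it, VPS13A was lower by a log2 change of -1.74 and CEP78 by -1.29.

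Among the GALNT enzymes, which start the chains, 5 of 11 tested members were higher and 4 lower in NOZ-R. GALNT1 and GALNT3 rose, and GALNT18, GALNT11 and GALNT7 fell. GALNT1 (chromosome 18, 35581117 to 35711834) had 329.1, 354.3 and 380.2 CPM in NOZ-R, against 98.2, 126.6 and 98.3 CPM in NOZ. Its log2 fold change was 1.72 ± 0.0918 (SE, edgeR adjusted p = 2.76e-09). GALNT3 (chromosome 2, 165747591 to 165794682), which also glycosylates the phosphate hormone FGF23, had 106.0, 109.1 and 112.2 CPM in NOZ-R, against 30.4, 37.8 and 32.6 CPM in NOZ. With 1.70 ± 0.0803 its log2 fold change was close to that of GALNT1 (SE, edgeR adjusted p = 7.97e-10), and neither gene's libraries overlapped. The smaller increases were those of GALNT6 (log2 0.37), GALNT10 (0.33) and GALNT2 (0.32), of which GALNT6 did not pass with limma on FPKM and GALNT2 did not with chromosome medians removed.

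GALNT18 had 3.75, 3.90 and 4.62 CPM in NOZ-R, against 13.8, 13.2 and 13.7 CPM in NOZ, the log2 fold change being -1.74 ± 0.128 (SE, edgeR adjusted p = 6.72e-08). GALNT11, known for glycosylating receptors of the LDL receptor family, had 8.22, 9.96 and 10.8 CPM in NOZ-R, against 24.2, 24.6 and 23.7 CPM in NOZ. The log2 fold change was -1.33 ± 0.108 (SE, edgeR adjusted p = 1.79e-07). The libraries of the lines were apart in both genes. GALNT7, which acts on peptides that already carry a sugar, was lower with a log2 change of -0.49. GALNT14 had 0, 2 and 0 counts in NOZ-R, against 12, 13 and 15 counts in NOZ, 18.6-fold lower (95% counting interval 4.82 to 158.8, edgeR adjusted p = 0.000489). GALNT5 and GALNT12 did not pass, with log2 changes of -0.06 (adjusted p = 0.45) and 0.23 (adjusted p = 0.271). GALNT5 passed as lower in 5 of the 19 alternatives, and GALNT12 as higher in 1, with chromosome medians removed.

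By level per length, GALNT1 led the class in NOZ-R at 66.1 FPKM, while GALNT10 led in NOZ. In NOZ-R GALNT10 followed at 45.4 FPKM, GALNT3 at 21.6 FPKM and GALNT5 at 17.9 FPKM, and the library ranges of these neighbours did not overlap. In NOZ GALNT10 stood at 39.5 FPKM, and GALNT1 at 21.98 FPKM could not be separated by range from GALNT5 at 20.3 FPKM. GALNT3 was the sixth gene in NOZ at 7.27 FPKM. GALNT1 took 37.0% ± 1.32 of the summed FPKM of the class in NOZ-R and 17.8% ± 2.002 in NOZ (SD, n = 3 each). The class sum was 178.7 FPKM ± 6.22 in NOZ-R and 122.9 FPKM ± 4.92 in NOZ (SD, n = 3 each). FPKM as deposited holds no correction for library composition. GALNT4, GALNT8 and GALNT17 had no count in any library, but 93.2% of the GALNT4 exon bases also lie in the POC1B-GALNT4 readthrough model, so its 0 may not speak for its transcript.

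**Figure D2:**
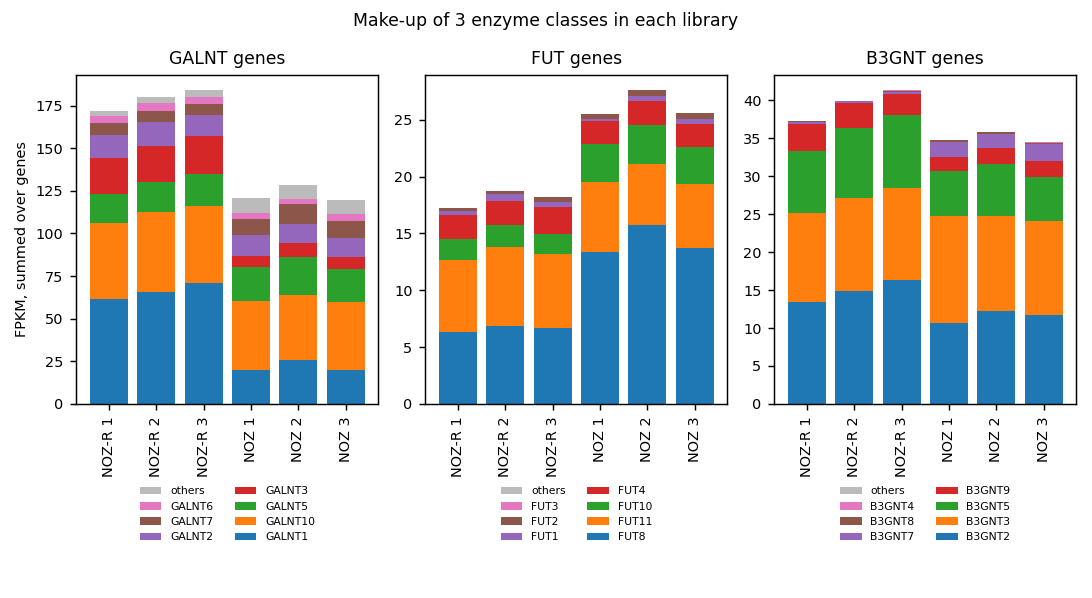
FPKM summed over genes (vertical axis) in each library, NOZ-R on the left and NOZ on the right of each panel, stacked by gene for the GALNT, FUT and B3GNT classes. GALNT1 fills more of the GALNT bars in NOZ-R (37.0%) than in NOZ (17.8%), and FUT8 less of the FUT bars in NOZ-R (36.7%) than in NOZ (54.3%).

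Neighbouring genes moved with some of these enzymes. Around GALNT3 9 of 10 tested neighbours were higher in NOZ-R, with a median log2 change of 2.997. COBLL1 had 4904 counts in NOZ-R and 10 in NOZ (log2 8.996), SCN9A had 80 counts in NOZ-R and 0 in NOZ, at least 28.7-fold higher, while the adjacent TTC21B did not pass (log2 0.00). Around GALNT11 9 of 10 neighbours were lower, with a median log2 change of -0.93, among them PRKAG2 (-1.43), ACTR3B (-1.51) and SMARCD3 (-2.54). Over chromosome 2 the median was 0.19 and 45.8% of tested genes were higher. Over chromosome 7 the median was -0.26 and 47.2% were lower. GCNT2 had 6 of 10 neighbours higher and none lower (median 0.65), as did GALNT1 (median 0.32). Of all tested genes on chromosome 6, that of GCNT2, 54.3% were higher and 10.5% lower (median 0.35). On chromosome 18, that of GALNT1, 43.8% were higher and 17.3% lower (median 0.17). B3GNT7 had 4 neighbours higher and 1 lower (median 0.11), and FUT8 had none higher and 4 lower (median 0.01). On chromosome 14, that of FUT8, 14.9% of tested genes were higher and 40.5% lower. Around GALNT18 2 of 10 neighbours were higher and 7 lower (median -0.30). On chromosome 11, that of GALNT18, 29.3% of tested genes were higher and 33.4% lower (median -0.07). The part of neighbouring genes in the enzymes' changes was not tested.

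**Figure D3:**
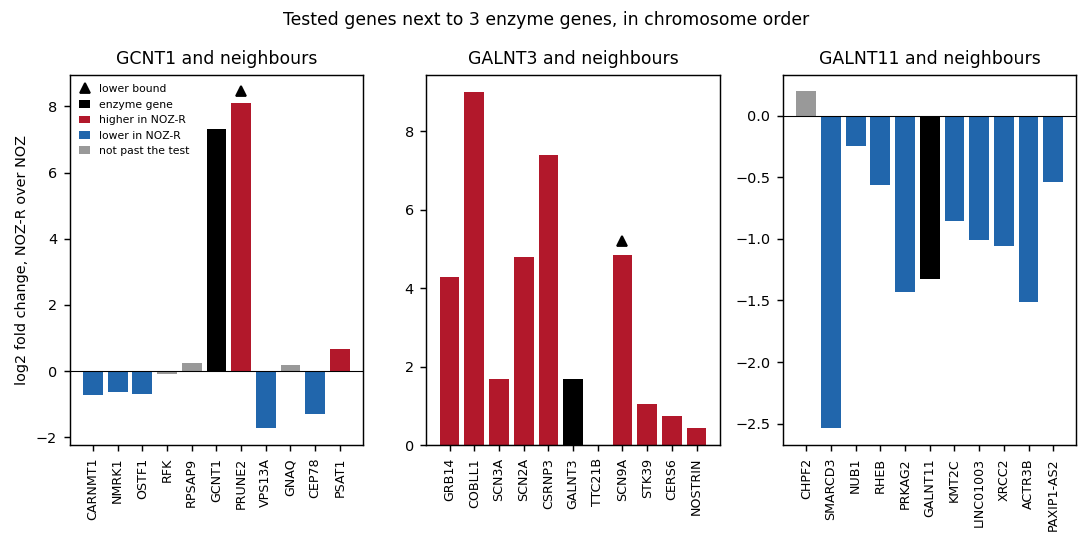
Log2 fold change of NOZ-R over NOZ (vertical axis, scaled separately in each panel) for GCNT1, GALNT3 and GALNT11 in black and the 5 tested genes on each side in chromosome order. Arrowheads mark lower bounds for PRUNE2 and SCN9A, with 0 counts in NOZ; the genes around GALNT3 are nearly all above 0 and those around GALNT11 nearly all below, while those around GCNT1 go both ways.

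The B3GNT enzymes add N-acetylglucosamine to lengthen chains, and 3 of 5 tested members rose while B3GNT7 fell. B3GNT7, which extends poly-N-acetyllactosamine and keratan sulfate chains (chromosome 2, 231395543 to 231401164), had 2.21, 1.67 and 2.41 CPM in NOZ-R, against 18.0, 17.4 and 20.1 CPM in NOZ. Its log2 fold change was -3.14 ± 0.148 (SE, edgeR adjusted p = 7.85e-10), the 56th lowest of 14386 genes, with the groups far apart. B3GNT9 had 10.04, 9.34 and 7.97 CPM in NOZ-R, against 4.73, 5.36 and 5.75 CPM in NOZ (log2 0.80 ± 0.142 SE, edgeR adjusted p = 0.000271). B3GNT5, which starts lacto-series glycolipids, had 68.7, 79.3 and 81.7 CPM in NOZ-R, against 46.6, 52.8 and 44.3 CPM in NOZ (log2 0.67 ± 0.0849 SE, edgeR adjusted p = 1.23e-05). Neither gene's libraries overlapped. B3GNT2, the main poly-N-acetyllactosamine synthase, had 40.1, 44.5 and 48.9 CPM in NOZ-R, against 29.3, 33.4 and 32.0 CPM in NOZ (log2 0.49 ± 0.0887 SE, edgeR adjusted p = 0.000289). B3GNT3, which extends core 1, did not pass at log2 0.01 (edgeR adjusted p = 0.89), a sign that turned in several alternatives. In level B3GNT2 led in NOZ-R at 14.9 FPKM with B3GNT3 next at 11.7 to 12.2 FPKM. In NOZ B3GNT3 led at 13.0 FPKM with B3GNT2 next at 11.6 FPKM.

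The galactosyltransferases changed little in size. Of 7 tested B4GALT genes 3 were higher and 2 lower, all by less than 1 log2 unit. B4GALT5, which with B4GALT6 makes lactosylceramide, took 49.1% of the summed FPKM of the class in NOZ-R and 41.9% in NOZ. It had 301.2, 309.3 and 313.0 CPM in NOZ-R, against 245.9, 248.7 and 245.8 CPM in NOZ, the log2 fold change being 0.32 ± 0.0493 (SE, edgeR adjusted p = 8.13e-05) without overlap. B4GALT6 had 80.2, 83.8 and 90.6 CPM in NOZ-R, against 93.2, 122.2 and 94.3 CPM in NOZ, the log2 fold change being -0.28 ± 0.0956 (SE, edgeR adjusted p = 0.0198). The groups did not overlap, though the gap was narrow, and without NOZ-R replicate 1 or 2 the call was lost. B4GALT4 had 463, 469 and 459 counts in NOZ-R, against 852, 752 and 639 counts in NOZ, the log2 fold change being -0.58 ± 0.0825 (SE, edgeR adjusted p = 3.8e-05).

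B4GALT7, which adds the first galactose of the proteoglycan linker, had 11.98, 11.01 and 8.70 CPM in NOZ-R, against 7.23, 6.08 and 6.42 CPM in NOZ, the log2 fold change being 0.68 ± 0.143 (SE, edgeR adjusted p = 0.000973). B3GALT6, which adds the next galactose of that linker, had 13.8, 14.3 and 12.2 CPM in NOZ-R, against 10.1, 9.45 and 10.01 CPM in NOZ, the log2 fold change being 0.45 ± 0.109 (SE, edgeR adjusted p = 0.00268). Both linker enzymes were modestly higher, with no overlap of libraries. Around B3GALT6 8 of 10 tested neighbours were higher and 0 lower (median 0.57). Of all tested genes on chromosome 1, that of B3GALT6, 43.7% were higher (median 0.18). Around B4GALT7 5 of 10 were higher and 2 lower (median 0.155), and on its chromosome 5 32.9% were higher. The part of neighbouring genes in these 2 increases was not tested. B4GALT2 had 48.1, 44.3 and 46.6 CPM in NOZ-R, against 35.3, 34.3 and 40.1 CPM in NOZ (log2 0.34 ± 0.0795 SE, edgeR adjusted p = 0.00202), and lost its call with chromosome medians removed. B4GALT1, the main galactosyltransferase of N-glycans, and B4GALT3 did not pass (log2 -0.09 and -0.04). B4GALT1 lies on chromosome 9, and after removal of chromosome medians its log2 change was 0.524 (adjusted p = 5.06e-06). It passed in the other direction, as lower, with unscaled library size, both limma fits and the GC correction.

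Of the B3GALT genes, B3GALT5, which makes the type 1 chains that carry the Lewis a antigen, had 100.5, 96.0 and 98.3 CPM in NOZ-R, against 119.4, 127.0 and 121.1 CPM in NOZ. The groups did not overlap, and the log2 fold change was -0.32 ± 0.0579 (SE, edgeR adjusted p = 0.000321). It led its class in both lines, at 6.43 FPKM in NOZ-R and 8.78 FPKM in NOZ. B3GALT9 had 8.88, 8.04 and 6.76 CPM in NOZ-R, against 14.8, 14.4 and 15.6 CPM in NOZ, the log2 fold change being -0.91 ± 0.120 (SE, edgeR adjusted p = 1.87e-05). It lies on chromosome 9 with 9 of 10 neighbours lower (median -0.63), where 74.8% of tested genes on that chromosome were lower (median -0.61). Of its exon bases 16.1% lie in FBXW2 on the opposite strand, itself lower by a log2 change of -0.74. B3GALT4 did not pass (log2 0.59).

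Sialyltransferases of the ST3GAL class, which cap galactose, split evenly, with 2 higher, 2 lower and 2 not passing. ST3GAL1, which sialylates core 1 and so acts on the same structure as GCNT1, did not pass. It had 224.6, 220.6 and 210.4 CPM in NOZ-R, against 215.2, 209.6 and 211.3 CPM in NOZ, overlapping (log2 0.04 ± 0.0526 SE, edgeR adjusted p = 0.494), and the sign turned under other scalings. It took 73.8% of the summed FPKM of the class in both lines. GCNT1 stood at 5.43 FPKM and ST3GAL1 at 23.8 FPKM in NOZ-R, and GCNT1 at 0.0361 FPKM and ST3GAL1 at 25.2 FPKM in NOZ.

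ST3GAL6, which caps type 2 chains on the way to sialyl Lewis x, had 7.23, 6.37 and 7.90 CPM in NOZ-R, against 3.44, 3.70 and 2.50 CPM in NOZ. The groups were apart, with log2 fold change 1.14 ± 0.172 (SE, edgeR adjusted p = 6.67e-05). Of its exon bases 3.74% lie in DCBLD2, an abundant gene on the opposite strand with 57156 counts in NOZ-R and 45400 in NOZ. ST3GAL2, a sialyltransferase of core 1 and gangliosides, had 27.8, 28.9 and 29.2 CPM in NOZ-R, against 21.6, 19.5 and 21.9 CPM in NOZ (log2 0.45 ± 0.0827 SE, edgeR adjusted p = 0.000357). ST3GAL5, the GM3 synthase, had 17.6, 17.6 and 16.3 CPM in NOZ-R, against 21.7, 23.6 and 20.8 CPM in NOZ (log2 -0.36 ± 0.0900 SE, edgeR adjusted p = 0.00358). ST3GAL4, which also caps type 2 chains, had 21.8, 20.5 and 22.4 CPM in NOZ-R, against 26.6, 26.9 and 26.2 CPM in NOZ (log2 -0.30 ± 0.0796 SE, edgeR adjusted p = 0.0049). In these genes too the libraries did not overlap.

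ST6GAL1 and ST8SIA1 had few counts in either line, while ST6GALNAC4 was moderately expressed. ST6GAL1, which adds the terminal sialic acid of N-glycans in a linkage distinct from that of the ST3GAL enzymes, had 23, 10 and 11 counts in NOZ-R, against 1, 1 and 2 counts in NOZ, a ratio of 11.8 (95% counting interval 4.31 to 45.3). ST8SIA1, the GD3 synthase, had 24, 16 and 10 counts in NOZ-R, against 0, 2 and 3 counts in NOZ, a ratio of 10.8 (95% counting interval 4.31 to 34.6). Both passed with edgeR (adjusted p = 0.000272 for ST6GAL1 and 0.000501 for ST8SIA1), yet neither averaged over 0.1 FPKM in NOZ-R, and neither passed with limma on log2(FPKM + 1). ST6GALNAC4, a sialyltransferase of O-glycans, had 18.9, 17.2 and 22.4 CPM in NOZ-R, against 24.2, 23.1 and 29.4 CPM in NOZ (log2 -0.39 ± 0.115 SE, edgeR adjusted p = 0.0105). Its groups did not overlap, but it lies on chromosome 9, where 74.8% of tested genes were lower, and 8 of its 10 neighbours were lower. With chromosome medians removed the change of ST6GALNAC4 was 0.226 (adjusted p = 0.113). Without NOZ-R replicate 2 or NOZ replicate 3 it no longer passed. ST6GALNAC5 and ST6GALNAC2 did not pass (log2 0.04 and -0.48), and ST6GALNAC1, which makes the sialyl-Tn antigen, had 2 to 11 counts per library.

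Of the fucosyltransferases 1 of 6 tested members was higher and 2 were lower. FUT8, which adds the core fucose of N-glycans (chromosome 14, 65410592 to 65744121; window above), had 45.6, 50.4 and 49.1 CPM in NOZ-R, against 89.2, 104.7 and 91.4 CPM in NOZ. The groups were far apart, with log2 fold change -0.98 ± 0.0764 (SE, edgeR adjusted p = 1.24e-07). It averaged 6.63 FPKM in NOZ-R, level with FUT11 at 6.60 FPKM, and 14.3 FPKM in NOZ, above FUT11 at 5.72 FPKM. FUT10 had 9.82, 10.8 and 10.1 CPM in NOZ-R, against 17.0, 17.3 and 16.9 CPM in NOZ (log2 -0.74 ± 0.0980 SE, edgeR adjusted p = 1.94e-05). FUT11 had 32.8, 35.9 and 33.3 CPM in NOZ-R, against 29.2, 25.2 and 26.4 CPM in NOZ (log2 0.33 ± 0.0836 SE, edgeR adjusted p = 0.00346), on chromosome 10 with a median of -0.59. FUT4, which makes Lewis x, and FUT1 and FUT2, the H antigen enzymes, did not pass (log2 0.21, 0.66 and -0.51). FUT3, the Lewis enzyme, had 2 counts in NOZ-R and 0 in NOZ, FUT6 0 in NOZ-R and 2 in NOZ, and FUT5, FUT7 and FUT9 had none.

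The MGAT enzymes build the antennae of N-glycans, and 3 of 4 tested members were higher and 1 lower. MGAT1, which opens the route to complex N-glycans, had 56.3, 56.0 and 51.4 CPM in NOZ-R, against 36.5, 31.3 and 33.8 CPM in NOZ, without overlap. Its log2 fold change was 0.69 ± 0.0789 (SE, edgeR adjusted p = 5.14e-06). MGAT4B, a branching enzyme and the most abundant of the class (18.0 FPKM in NOZ-R, 17.2 FPKM in NOZ), had 107.1, 100.9 and 101.4 CPM in NOZ-R, against 92.5, 82.2 and 96.5 CPM in NOZ. Its log2 fold change, 0.19 ± 0.0693 (SE, edgeR adjusted p = 0.0287), was small and the call was lost in 9 of 19 alternatives. MGAT5, which makes the branch often raised in carcinomas, stood at log2 0.15 ± 0.0586 (SE, edgeR adjusted p = 0.046) and lost its call in 16 of 19 alternatives. MGAT5B had 2.10, 1.24 and 1.74 CPM in NOZ-R, against 4.54, 2.99 and 2.43 CPM in NOZ (log2 -0.98 ± 0.276 SE, edgeR adjusted p = 0.00731), and did not pass without NOZ replicate 1.

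**Figure D4:**
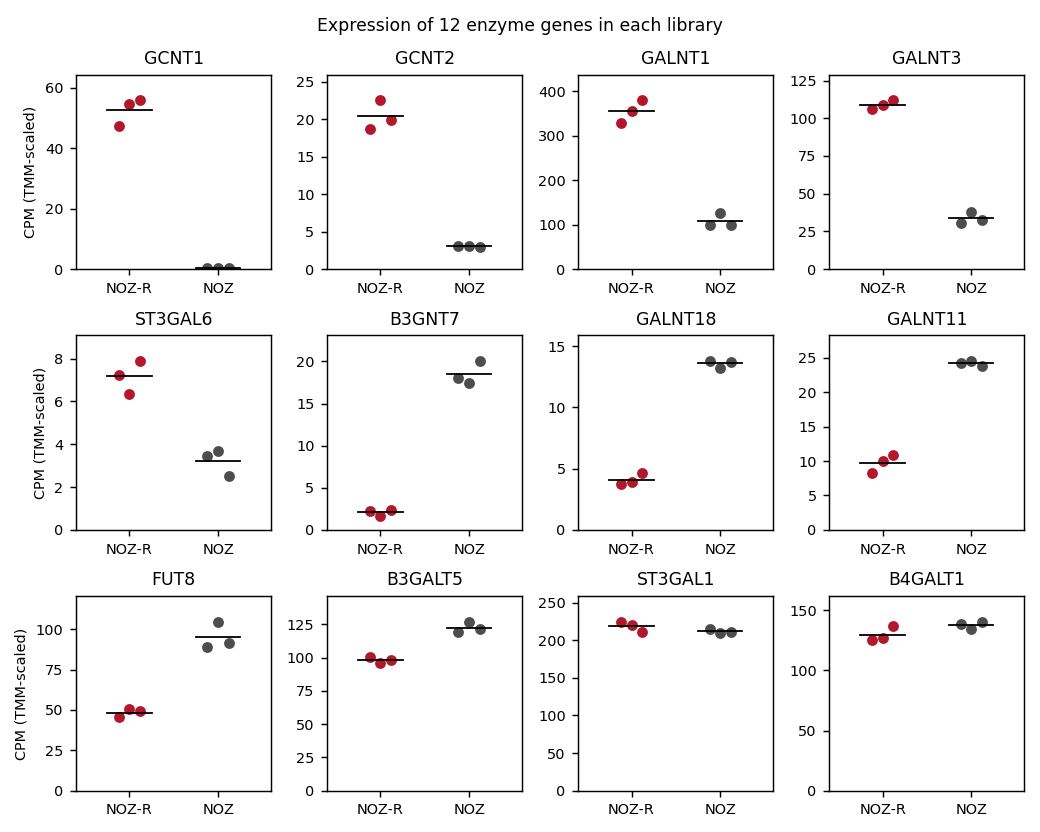
CPM of 12 enzyme genes in each library (vertical axis from 0), with NOZ-R points on the left, NOZ points on the right and a bar at each mean of 3 libraries. GCNT1, GCNT2, GALNT1, GALNT3 and ST3GAL6 were higher in every NOZ-R library, B3GNT7, GALNT18, GALNT11, FUT8 and B3GALT5 lower, and ST3GAL1 and B4GALT1 overlapped.

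The 34 untested genes included 12 with no count in any library, 11 with 1 to 10 counts over all 6 and 11 with more. For a gene with no count, 3 counts over a line's libraries is the limit that the depth allows. MGAT2, needed for complex N-glycans, had 1 count in NOZ-R and none in NOZ, but 91.9% of its exon bases lie in a gene model on the opposite strand, and 82.5% of those of FUT5 lie in another model on the same strand. The counts given to those models were also 0, so the table does not limit the level of these genes. MGAT3, the bisecting enzyme, had 5 counts in NOZ-R and 2 in NOZ.

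Other genes of the pathway were read from a list of 61, of which 41 were tested, 18 higher, 8 lower and 15 not passing. Their median log2 change was 0.17. Of all 14386 tested genes 30.4% were higher and 29.8% lower, 60.2% in either direction, so these counts alone say little about the pathway. At the core 1 step, which comes before GCNT1, no gene was higher past the test. C1GALT1, the core 1 synthase, averaged 68.3 CPM ± 4.03 in NOZ-R and 77.7 CPM ± 9.97 in NOZ (SD, n = 3 each) and did not pass (log2 -0.19, edgeR adjusted p = 0.0769). It passed as lower in 8 of the 19 alternatives. Its chaperone C1GALT1C1 averaged 21.96 CPM ± 2.31 in NOZ-R and 27.5 CPM ± 3.78 in NOZ (SD, n = 3 each) and was lower, with overlapping libraries (log2 -0.33, edgeR adjusted p = 0.0178). For both genes the sign turned when chromosome medians were removed.

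All 16 genes of nucleotide sugar synthesis were tested, and 7 were higher and 2 lower. GFPT2, an entry enzyme of the hexosamine route, had 12.6, 13.2 and 10.7 CPM in NOZ-R, against 5.88, 5.53 and 5.21 CPM in NOZ (log2 1.13 ± 0.129 SE, edgeR adjusted p = 4.66e-06). UAP1, which makes UDP-N-acetylglucosamine, had 128.3, 140.6 and 136.8 CPM in NOZ-R, against 68.2, 72.5 and 64.7 CPM in NOZ (log2 0.98 ± 0.0657 SE, edgeR adjusted p = 2.58e-08). GNE, the first enzyme of sialic acid synthesis, had 54.5, 54.2 and 53.6 CPM in NOZ-R, against 99.1, 92.6 and 94.0 CPM in NOZ (log2 -0.82 ± 0.0616 SE, edgeR adjusted p = 8.87e-08). The libraries did not overlap in any of these. GNE lies on chromosome 9, where 74.8% of tested genes were lower (median -0.61). Its call was lost only in the test against a 2-fold change, and it still passed with chromosome medians removed. GMDS, of GDP-fucose synthesis, was lower by a log2 change of -0.35, while GFUS, the next enzyme of that route, was higher by 0.71. Of 4 Golgi transporters, SLC35C1 for GDP-fucose was higher (log2 0.28), and SLC35A2 for UDP-galactose (-0.33) and SLC35A3 for UDP-N-acetylglucosamine (-0.27) were lower. The calls of SLC35C1 and SLC35A3 were lost in 7 and 6 of the 19 alternatives. SLC35A2 lies on the X chromosome, with a median of -0.44, and with chromosome medians removed it stood at 0.112 and did not pass (adjusted p = 0.305).

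Among enzymes that trim or modify the chains, MAN1A1 and CHST1 rose most, and both had very few counts in NOZ. MAN1A1, a mannosidase that trims N-glycans before MGAT1 acts, had 40, 45 and 40 counts in NOZ-R, against 3, 0 and 0 counts in NOZ, a ratio of 44.8 (95% counting interval 15.0 to 220.2, edgeR adjusted p = 1.89e-06). CHST1, a galactose sulfotransferase that acts on keratan sulfate, had 74, 29 and 53 counts in NOZ-R, against 2, 3 and 3 counts in NOZ, a ratio of 21.0 (95% counting interval 10.4 to 49.4, edgeR adjusted p = 2.86e-06). MAN1A2 was higher (log2 0.45) and MAN2A1, which acts after MGAT1, was lower (-0.53). Of 4 tested sialidases and fucosidases 3 were higher, among them FUCA2 (log2 0.71) and NEU1 (0.67), and NEU3 was lower (-0.69). Of the O-fucosyltransferases, POFUT2 (log2 0.83) and POFUT1 (0.40) were higher. B4GALNT1, the GM2 and GD2 synthase, averaged 0.912 CPM in NOZ-R and 2.58 CPM in NOZ and was lower (log2 -1.47, edgeR adjusted p = 0.00396).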

How the data were processed

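The deposited count table, which the authors did not normalize, holds whole-number counts per gene for 6 libraries. The authors' FPKM table holds the same genes, each value being the count over the library total and a fixed length per gene (largest relative spread of the implied length 1.8e-14). Per the submitters' processing notes, fastp 0.22.0 was run on the reads and GRCh38 was the build. No source used here gives the aligner, the counter, its strand setting or the annotation release. Per the labels' protocols, libraries were poly-A selected, without a described strand-marking step or molecular identifiers, so intervals and limits cover counting error only. No row of the table lacked a gene name.

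Counts were tested with edgeR 4.0.16 in R 4.3.3 (filterByExpr, TMM factors of 0.954 to 1.05, quasi-likelihood test, Benjamini-Hochberg over 14386 genes), with all 6 libraries and no covariate. The SE is the log2 fold change divided by the root of the F statistic. Counting intervals are exact binomial (scipy 1.17.1). Positions come from GENCODE release 29, matched by symbol for 89.6% of tested genes, and windows from RefSeq (GRCh38.p14), found for 61 of the 84 enzyme genes. Alternatives were DESeq2 1.42.0 size factors and Wald test, upper-quartile factors, unscaled library size, all genes unfiltered, only genes at 1 CPM in 3 libraries, limma 3.58.1 on log2(FPKM + 1) and log2(FPKM + 0.1), a test against a 2-fold change, a threshold of 0.01, the replicate number as a block, a GC correction (loess, span 0.3), removal of chromosome medians, and leaving out each library. The procedure was tested on simulated data. The members, lists, windows and tests were chosen with earlier results of these data known. In each class, values are given in full for up to 2 increases and 2 decreases past the test that averaged 1 CPM or more and whose libraries did not overlap, and for the gene with the highest mean FPKM. Of the other pathway genes, up to 2 each way per group past the test are named, and C1GALT1 and its chaperone always. GALNT14, GFUS and the neighbours of enzyme genes were named outside this rule, after their values were seen. No library was a duplicate of another: replicate pairs gave a chi-square of 2.16 to 11.2 per gene on average, and all were kept. NOZ replicate 2 differed in GC trend: over genes, its deviation from the line's mean had a rank correlation of -0.525 with GC content, the other NOZ libraries 0.338 and 0.393.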

Additional observations from a re-analysis of the deposited data

How the results depend on the processing

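Of the 37 enzyme genes called, 8 kept their call in every one of the 19 alternatives that tested them (GALNT14 was tested in 18, since a filter of 1 CPM in 3 libraries removed it), 19 lost it only in the edgeR test against a 2-fold change, and 10 lost it elsewhere. In that 2-fold test 6 of the 50 enzyme genes were higher and 4 lower. Of the 41 other pathway genes tested, 2 were higher and 0 lower, with 1 lower at an unadjusted p below 0.05 (B4GALNT1). Over all 14386 genes the same test gave 847 higher and 442 lower. No other tool ran this test. The median over all genes was -0.01, and it was -0.14 with unscaled library sizes and -0.10 with the GC correction.

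Genes near 0 changed sign. B3GNT3 stood at -0.001 (upper-quartile factors), -0.115 (library size), -0.102 and -0.109 (limma with pseudocounts of 1 and 0.1), -0.119 (GC), -0.066 (chromosome medians), and between -0.017 and 0.083 with single libraries left out (-0.017 and -0.009 without NOZ replicates 2 and 3). ST3GAL1 stood at -0.086 (library size and limma with 0.1), -0.083 (limma with 1), -0.098 (GC) and -0.053 (chromosome medians). ST6GALNAC5 stood at -0.092 (library size), -0.043 and -0.078 (limma with 1 and 0.1), -0.054 (GC), -0.144 (chromosome medians), and between -0.047 and 0.088 with single libraries left out (-0.047 and -0.008 without NOZ-R or NOZ replicate 3). With single libraries left out, GALNT5 lay between -0.089 and 0.008 (without NOZ replicate 2), and B4GALT3 between -0.15 and 0.016 (0.016 and 0.006 without NOZ-R replicates 2 and 3). GALNT5 and B4GALT1 passed as lower with unscaled library size, both limma fits and the GC correction, and GALNT5 also with chromosome medians removed. With chromosome medians removed, B4GALT1 stood at 0.524, ST6GALNAC4 at 0.226, MGAT5 at -0.047, C1GALT1 at 0.073, C1GALT1C1 at 0.108 and SLC35A2 at 0.112. The cause was not tested.

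Deviations of same-numbered libraries correlated at 0.0682, -0.0224 and -0.0365, so no pairing by replicate number was seen. So few values cannot exclude a pairing, and the labels do not say what a number marks. With the replicate block 21 enzyme genes were higher and 15 lower, MGAT5 alone losing its call, and 18 and 8 of the other pathway genes were called. Over all 14386 genes the block gave 4324 higher and 4180 lower. Leaving out single libraries gave 21 to 22 enzyme genes higher and 13 to 15 lower. Over all genes, with 14743 to 14926 tested, it gave 4018 to 4634 higher and 3833 to 4328 lower. At under 50 counts per line (GALNT14, ST6GAL1), depth limits the fold.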
